A study of Mus musculus with 4 samples.

Results

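The genes described here are Plau, Plat, Plaur, Serpine2 and Klk10, which encode 2 plasminogen activators, the urokinase receptor, a serpin inhibitor of the activators and a kallikrein-related protein. They were taken by symbol from the expression table, and all 5 were found among its 16695 genes. The RNA came from 4T1, a mouse mammary carcinoma line, as 2 libraries with Dhodh knocked out (DHODH KO, called KO here) and 2 wild type libraries (WT). Dhodh encodes the mitochondrial dehydrogenase that makes orotate on the way to uridine nucleotides, and the comparison asks what its loss does to the transcriptome. The labels give no other treatment, time or medium. They do not say whether the KO cells were 1 clone or a pool, and name no separate cultures for replicates, so the errors measure only the spread between these libraries. The choice of these genes drew on values of the same KO and WT libraries. Their levels and differences are therefore given as a description, without p-values.

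Plasminogen circulates as an inactive protein. It is cut to the protease plasmin by urokinase (Plau) on cell surfaces, where Plaur holds it, and by tissue plasminogen activator (Plat), which acts best on fibrin. Serpins such as Serpine2 (protease nexin 1) trap the activators in covalent complexes, which receptors of the LDL receptor family take up. Plasmin breaks down fibrin and matrix proteins and activates pro-forms of metalloproteases, and in mammary carcinoma the urokinase system is known for its part in invasion. Kallikrein-related peptidases are secreted serine protease family members encoded in 1 gene cluster.

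Klk10 and Serpine2 exchanged places in the order of levels, while the urokinase genes stayed the most abundant of the 5 in both genotypes. Levels are FPKM, reads per length of gene, scaled to the reads of the library, and so can be set side by side between genes. In KO cells the order was Plaur (79.9 ± 0.953 FPKM), Plau (53.1 ± 5.88), Serpine2 (26.0 ± 0.808), Klk10 (4.26 ± 0.483) and Plat (3.84 ± 0.0234; SD, n = 2 each). In WT cells it was Plaur (84.5 ± 0.0772 FPKM), Plau (68.8 ± 2.51), Klk10 (26.3 ± 2.11), Serpine2 (6.47 ± 0.0590) and Plat (4.96 ± 0.184). Among these neighbours only Klk10 and Plat in KO cells differed by less than the SD of 1 of them. Among 10170 genes with a mean of at least 1 FPKM, Klk10 lay at percentile 20.5 of the levels in KO and 73.2 in WT, and Serpine2 at percentile 72.2 in KO and 32.7 in WT.

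**Figure D1:**
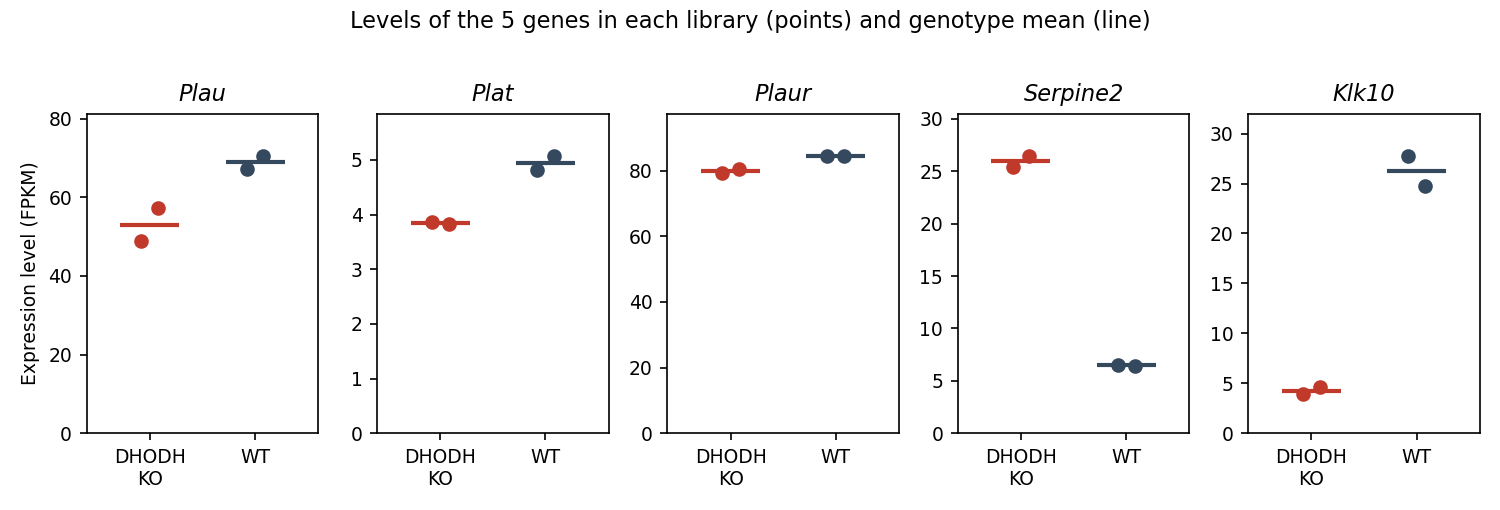
Expression level in FPKM (vertical axis, from 0, scaled for each gene) in each library (points) of DHODH KO cells (red) and WT cells (dark blue), with the mean of each genotype (line, n = 2). Serpine2 is at 25.4 and 26.5 FPKM in KO against 6.51 and 6.43 in WT, Klk10 at 3.92 and 4.60 in KO against 27.8 and 24.8 in WT, and the other genes differ far less.

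The libraries were deep enough to give every one of the 5 genes at least 200 reads. FPKM values were whole multiples of the value of 1 read, and solving for whole reads and whole gene lengths gave library totals of 37666767 and 37697518 reads in KO replicates 1 and 2 and 35336769 and 34639043 reads in WT replicates 1 and 2. Epithelial carcinoma markers (Krt7, Krt8, Krt18, Krt19, Epcam and Cdh1) summed to 1930 to 1940 FPKM in KO and 1940 to 1960 FPKM in WT. Dhodh itself was at 9.67 and 8.69 FPKM in KO against 10.9 and 10.3 FPKM in WT, a log2 difference of -0.19 ± 0.068 (SE, adjusted p = 0.0425). That call was lost without KO replicate 2 (-0.12), without WT replicate 1 (-0.16) and without WT replicate 2 (-0.22), and a gene total cannot show a small edit. KO replicate 2 also held transcripts of other tissues. Of 9 heart muscle markers, Tnnt2 was at 188 to 208 FPKM in all 4 libraries. The list without Tnnt2 and Nppb, 7 genes, summed to 0 and 84 FPKM in KO replicates 1 and 2 against 0 and 0.00687 FPKM in WT replicates 1 and 2. The values of the 5 genes without KO replicate 2 are given with each gene.

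Urokinase RNA was lower in KO cells. In bulk RNA, fewer cells that express a gene and less of its RNA per cell cannot be told apart. Plau (Entrez Gene 18792) had 48.9 and 57.2 FPKM in KO, against 67.1 and 70.6 FPKM in WT. The groups did not overlap, but the KO libraries stood further apart than the WT libraries, by 15.7% of their mean against 5.16% in WT. The reads behind these values were 4223 and 4945 in KO against 5431 and 5606 in WT, so counting error (1.54% or less) was smaller than the gap between KO libraries. The ratio of mean FPKM, KO over WT, was 0.771, and the log2 difference was -0.37 ± 0.072 on the log2(FPKM + 1) scale (SE), the scale used for all log2 differences below. The 4 ratios of 1 KO library to 1 WT library lay between 0.693 and 0.853. Kidney markers were at 0.00711 and 9.76 FPKM in sum in KO replicates 1 and 2, against 0 and 0.0400 in WT, and 3 of the 5 measured (Umod, Slc34a1 and Kap) were at 0 outside KO replicate 2. Without that library the Plau difference was larger (-0.48), and without KO replicate 1 it was -0.26. Whether RNA of kidney or another tissue had a part in the Plau level was not tested.

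Plat, the tissue-type activator, was the lowest of the 5 genes and was lower in KO by a like ratio. Plat (Entrez Gene 18791) had 3.86 and 3.82 FPKM in KO, against 4.82 and 5.08 FPKM in WT. The reads were 386 and 383 in KO against 453 and 468 in WT, which gives a counting error of up to 5.11% per library. The KO libraries agreed within 0.862% of their mean and the groups did not overlap. The KO over WT ratio was 0.775 and the log2 difference -0.30 ± 0.072 (SE), or -0.29 without KO replicate 2. Since both activators were lower, the ratio of Plau to Plat FPKM stayed alike, at 12.7 and 15.0 in KO and at 13.9 and 13.9 in WT, with overlapping groups.

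Plaur, the receptor that anchors urokinase to the cell surface, differed least. Plaur (Entrez Gene 18793) had 79.3 and 80.6 FPKM in KO, against 84.5 and 84.6 FPKM in WT. The groups did not overlap, yet the whole difference was a ratio of 0.946 and a log2 difference of -0.08 ± 0.035 (SE), or -0.09 without KO replicate 2. The read numbers themselves were nearly alike, at 4654 and 4737 in KO and 4654 and 4568 in WT, and the lower FPKM in KO came with larger KO libraries. Plau per Plaur transcript level was 0.617 and 0.710 in KO, against 0.794 and 0.835 in WT.

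Serpine2, the protease nexin that inhibits urokinase and thrombin, was the 1 gene of the 5 that was higher in KO. Serpine2 (Entrez Gene 20720) had 25.4 and 26.5 FPKM in KO, against 6.51 and 6.43 FPKM in WT. The 2442 and 2554 reads in KO stood against 588 and 569 reads in WT, and no library lay between the groups. The KO mean was 4.01-fold the WT mean, and the log2 difference was 1.85 ± 0.053 (SE). Only 39 of the 10170 tested genes had a larger positive log2 difference. Fibroblast markers, a cell type known to express Serpine2, summed to 2.60 and 10.2 FPKM in KO replicates 1 and 2, against 3.12 and 3.07 FPKM in WT. The log2 difference of Serpine2 without KO replicate 2 was 1.82, and a part of fibroblast RNA in its level was not tested.

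Klk10, the kallikrein-related gene, showed the largest difference of the 5, in the other direction. Klk10 (Entrez Gene 69540) had 3.92 and 4.60 FPKM in KO, against 27.8 and 24.8 FPKM in WT. Reads numbered 200 and 235 in KO and 1330 and 1164 in WT, with a counting error of up to 7.07% per library. Libraries of a genotype differed by 16.0% of their mean in KO and 11.3% in WT, while the WT mean was 6.17-fold the KO mean. The log2 difference was -2.38 ± 0.084 (SE), and 5 tested genes had a lower value. It was -2.47 without KO replicate 2 and -2.28 without KO replicate 1.

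Set against the whole table, 3 of the 5 genes (Plau, Plat and Klk10) were called lower in KO, 1 (Serpine2) was called higher and 1 (Plaur) was not called at an adjusted p under 0.05. In the same fit 64.7% of all tested genes were called, 35.6% higher and 29.1% lower in KO. Values of the groups did not overlap for any of the 5, as for 83.4% of all tested genes (45.6% higher and 37.9% lower in KO). These counts come from the values that chose the genes and add nothing to them. The Plat call was lost without WT replicate 2 (log2 difference -0.27), the Plau call was lost with no filter on low genes, and Plaur was called under median-ratio scaling (-0.12).

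**Figure D2:**
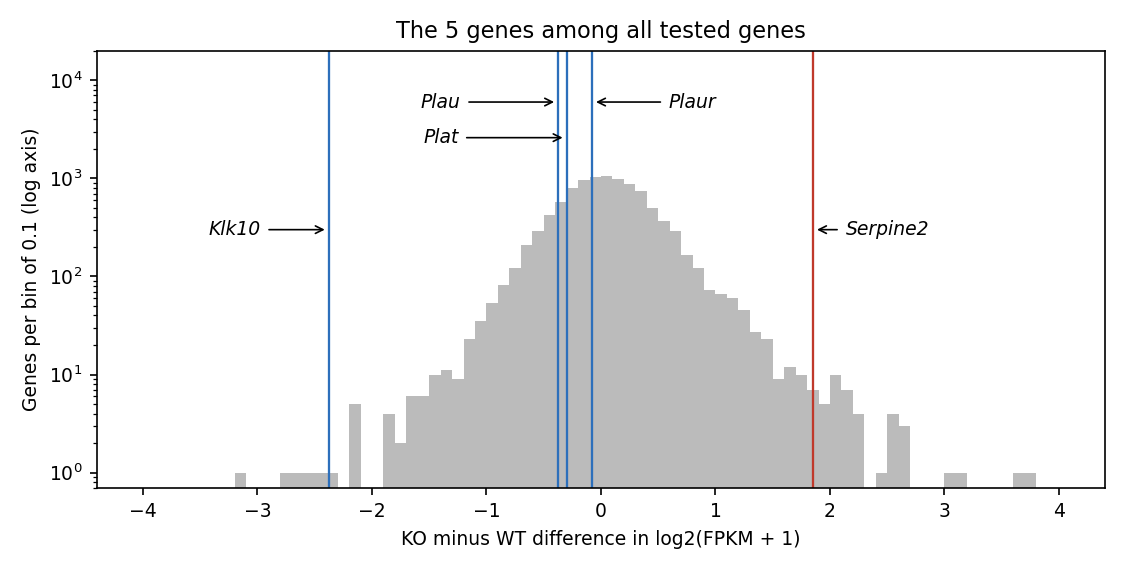
Number of genes (vertical, log axis) in bins of 0.1 of the KO minus WT difference in log2(FPKM + 1) (horizontal) for all 10170 tested genes, with a line at each of the 5 genes, red where higher and blue where lower in KO. Plau (-0.37), Plat (-0.30) and Plaur (-0.08) lie within the bulk, and Serpine2 (1.85) and Klk10 (-2.38) in the tails.

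The RefSeq promoter table (GRCm38.p6) held windows for 3 of the 5 genes, Klk10, Serpine2 and Plaur. The 250 bases before the annotated start are shown for all 3, the only members with a window. Of the 5 genes these also had the largest decrease, the largest increase and the smallest difference. Capitals mark matches to any of the motifs searched on both strands, which were AP-1 (TGANTCA), CRE (TGACGTCA), the hypoxia response core HRE (ACGTG), C/EBP-ATF (TGATGNAA) and the TATA box (TATAAA). The windows are chr7:43780804-43781053 on the plus strand for Klk10, chr1:79858666-79858915 on the minus strand for Serpine2 and chr7:24462233-24462482 on the plus strand for Plaur.
Klk10: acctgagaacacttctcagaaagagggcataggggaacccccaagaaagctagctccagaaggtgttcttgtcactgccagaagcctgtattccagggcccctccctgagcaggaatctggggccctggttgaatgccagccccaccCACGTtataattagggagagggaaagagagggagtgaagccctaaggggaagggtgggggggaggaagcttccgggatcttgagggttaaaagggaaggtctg
Serpine2: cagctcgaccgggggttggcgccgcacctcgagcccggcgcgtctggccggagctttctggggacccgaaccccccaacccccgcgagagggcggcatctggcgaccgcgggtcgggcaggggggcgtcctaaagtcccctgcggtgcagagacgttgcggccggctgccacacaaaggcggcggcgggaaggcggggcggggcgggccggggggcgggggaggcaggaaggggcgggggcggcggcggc
Plaur: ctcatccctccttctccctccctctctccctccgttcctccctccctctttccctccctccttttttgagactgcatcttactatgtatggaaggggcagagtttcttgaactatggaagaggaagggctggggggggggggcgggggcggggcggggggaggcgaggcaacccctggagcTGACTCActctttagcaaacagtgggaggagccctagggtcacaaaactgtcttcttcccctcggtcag
The Klk10 window held 1 match, an HRE core on the other strand from -103 to -99, and the Plaur window held 1 match, an AP-1 motif from -69 to -63, counted from the start. The Serpine2 window held none of the 5 motifs. Over all 32851 windows of the table, 16.6% (5444) held the HRE core and 6.75% (2217) the AP-1 motif, so neither match is particular to these genes. CRE was in 1.55%, C/EBP-ATF in 3.45% and the TATA box in 12.4% of windows. The Serpine2 window was 78.8% G and C, above the 95th percentile of all windows (73.6%), whereas Klk10 (56.0%) and Plaur (59.6%) lay nearer the median of 52.4%.

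Plasminogen and its other inhibitors were mostly at low levels. Of 14 listed genes, all in the table, 2 reached the expression filter, among them Serpinb6a, an intracellular serpin gene, which was not called (142 and 157 FPKM in KO, 149 and 154 in WT, adjusted p = 0.787). Serpinb2, plasminogen activator inhibitor type 2, lay below the filter and was not tested, with 0 and 0.168 FPKM in KO, against 1.34 and 1.30 FPKM in WT. Its recovered reads were 0 and 13 in KO against 97 and 92 in WT, and may be a divisor of the true numbers. Plg, the plasminogen gene, which the liver expresses most, was at 0.260 and 0.298 FPKM in KO, against 0.185 and 0.220 FPKM in WT. Serpinf2, the antiplasmin gene, was at 0.266 and 0.254 FPKM in KO and 0.232 and 0.290 FPKM in WT. A list of 9 liver markers, led by Alb, was present in all libraries, with sums of 29.1 and 44.2 FPKM in KO and 28.9 and 25.1 FPKM in WT, and its part in the Plg level was not tested.

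Within a library, urokinase and Klk10 levels were lower relative to Serpine2 in KO than in WT. The ratio of Plau to Serpine2 FPKM was 1.93 and 2.16 in KO, against 10.3 and 11 in WT. The ratio of Klk10 to Serpine2 FPKM was 0.155 and 0.174 in KO, against 4.27 and 3.86 in WT. These ratios describe RNA and carry no information on secreted protein or protease activity. They combine genes chosen on the same contrast, so no test was made.

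Other serpin genes were called higher in KO more often than lower. The table held 50 genes named Serpin besides Serpine2, and 13 reached the filter. Of these, 9 rose and 2 fell, with a median log2 difference of 0.47, beside a median of 0.04 over all tested genes, of which 35.6% were called higher and 29.1% lower. Serpina3f, Serpina3i and Serpinb9c had WT means under 1 FPKM and passed the filter only through KO, so the count and median lean towards KO. Serpina3g, a member of the antichymotrypsin gene family, rose to 26.7 and 27.1 FPKM in KO, against 5.52 and 6.19 FPKM in WT (2.03 ± 0.063, adjusted p = 1.2e-06). Serpinb9b and Serpinb9c, relatives of the granzyme B inhibitor gene Serpinb9, rose 3.92-fold and 4.54-fold. Serpinb9 itself fell, to 5.07 and 5.27 FPKM in KO, against 8.40 and 7.65 FPKM in WT, and so did Serpinb5, the maspin gene (0.532-fold), both named after their values were seen. The Serpina3 and Serpinb9 genes are near copies within each family, and how their reads were shared out is not known.

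**Figure D3:**
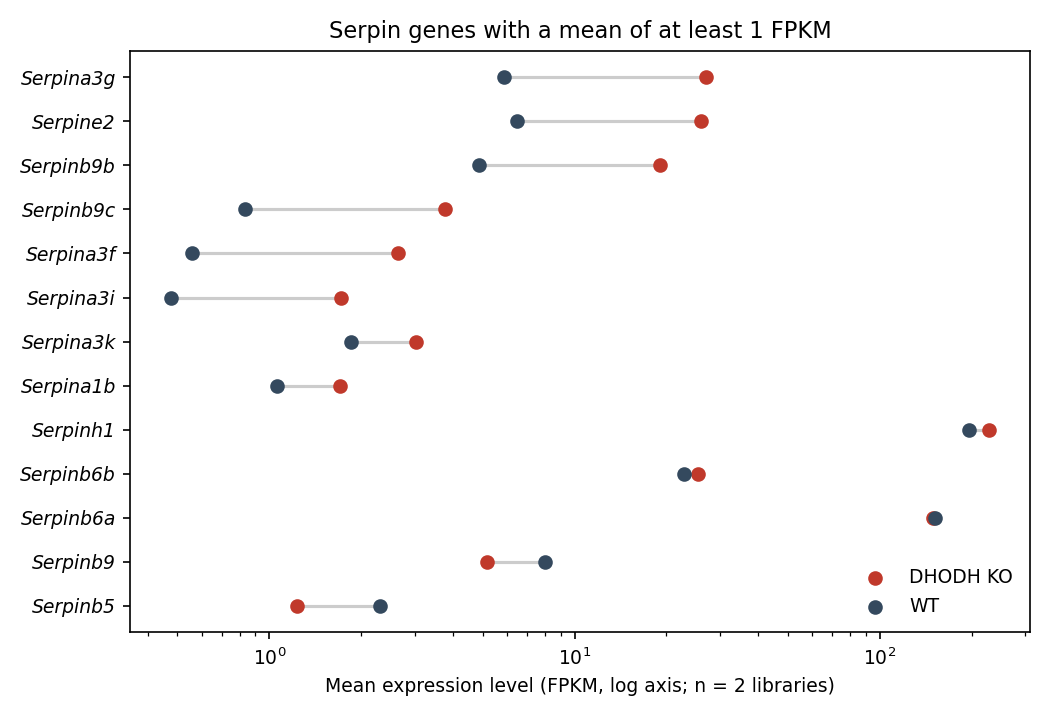
Mean FPKM (horizontal, log axis, n = 2) of Serpine2 and other serpin genes that reached the filter, in DHODH KO (red) and WT (dark blue), ordered by log2 difference from the largest increase at the top. Serpine2 (26.0 FPKM in KO, 6.47 in WT) is second after Serpina3g, and Serpinb9 and Serpinb5 at the bottom are lower in KO.

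Genes of the surfaces and receptors that handle plasminogen and spent inhibitor complexes were called in a share near the 64.7% of all tested genes. Of 15 listed, 13 were tested, 4 rose, 4 fell and the median log2 difference was -0.01. Vldlr, an endocytic receptor for serpin complexes of urokinase, rose to 2.14 and 2.16 FPKM in KO, against 0.454 and 0.465 FPKM in WT (4.68-fold, adjusted p = 8.0e-05). It passed the filter only through KO, and its adjusted p with no filter was 0.00265. Sorl1, a sorting receptor that binds such complexes, rose 1.64-fold (adjusted p = 2.6e-04). Lrp1, the clearance receptor best known for this role, was not called (14.7 and 12.9 FPKM in KO, 13.6 and 13.4 in WT, adjusted p = 0.724). The subunits of the annexin A2 complex, which binds plasminogen and tissue activator, moved apart. Anxa2 fell to 581 and 569 FPKM in KO, against 676 and 683 FPKM in WT (-0.24 ± 0.031, adjusted p = 4.5e-04), and S100a10 rose to 873 and 849 FPKM, against 721 and 733 FPKM in WT (0.24 ± 0.032, adjusted p = 5.1e-04). Plgrkt, a transmembrane plasminogen receptor gene, was not called, at 10.1 and 10.5 FPKM in KO and 9.74 and 11.1 FPKM in WT (adjusted p = 0.888).

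Partners of the urokinase receptor also held genes of either direction. Of 14 listed, 12 were in the table and 8 were tested, of which 4 rose and 3 fell (median 0.11), beside 35.6% higher and 29.1% lower of all tested genes. Itga3, an integrin chain that binds the receptor, fell to 182 and 176 FPKM in KO, against 423 and 418 FPKM in WT (-1.23 ± 0.034, adjusted p = 7.6e-07). Met, the receptor of hepatocyte growth factor, fell 1.81-fold relative to WT (adjusted p = 5.2e-05). The integrin chain genes Itga5 and Itgb5 rose 1.83-fold and 1.35-fold (adjusted p = 4.1e-05 and 1.7e-04). Of the Ly6 and uPAR domain relatives of Plaur, 12 of 15 were in the table, 3 were tested, 1 fell and none rose. The one that fell was Lypd3, with 1.89 and 2.75 FPKM in KO, against 4.19 and 3.92 FPKM in WT (-0.62 ± 0.128, adjusted p = 0.00424). The number called on this list was 2 without KO replicate 1 and also without KO replicate 2.

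Substrates of plasmin and the activators were called lower in KO more often than higher. Of 20 listed genes, 19 were in the table and 14 were tested, with 8 lower, 3 higher and a median log2 difference of -0.43, where 29.1% of all tested genes were lower and 35.6% higher. All 5 metalloproteases tested from the list (Mmp3, Mmp9, Mmp10, Mmp13 and Mmp14) fell. Mmp9 (gelatinase B) had 14.7 and 14.9 FPKM in KO, against 44.0 and 43.2 FPKM in WT (-1.50 ± 0.043, adjusted p = 9.0e-07). Mmp3 and Mmp10, the stromelysins, were at 0.414-fold and 0.191-fold of WT (adjusted p = 3.8e-06 and 5.0e-06). Ltbp1, whose protein tethers latent TGF-beta to the matrix, fell to 10.6 and 11.7 FPKM in KO, against 26.2 and 25.7 FPKM in WT (adjusted p = 7.5e-06). The fibrinogen chain genes Fga, Fgb and Fgg, liver genes that varied between libraries of a genotype, were not called and were named after their values were seen.

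Other serine proteases of the cell surface and their Kunitz inhibitors gave 3 increases and 2 decreases among 8 tested of 14 listed (13 in the table, median 0.08), a share called near the 64.7% of all tested genes. St14, the gene of matriptase, which can activate pro-urokinase, rose to 56.5 and 59.5 FPKM in KO, against 45.3 and 42.1 FPKM in WT (adjusted p = 3.8e-04). Its inhibitor gene Spint2 rose 1.47-fold (adjusted p = 1.4e-05). Tmprss11e, a transmembrane serine protease gene, was at 0.630-fold of WT and the tryptase gene Prss22 at 0.484-fold (adjusted p = 1.1e-05 and 3.6e-05). On the list of tissue factor, thrombin receptors and protein C, 4 of 10 genes were tested, 2 rose and 2 fell (median 0.20), too few to set against the share of all genes. F3, tissue factor, which starts coagulation, rose to 12.6 and 13.1 FPKM in KO, against 4.54 and 5.39 FPKM in WT (1.22 ± 0.081, adjusted p = 2.1e-05). The thrombin receptor gene F2r rose 1.49-fold (adjusted p = 6.2e-05) and Procr, the protein C receptor gene, was at 0.746-fold of WT (adjusted p = 3.0e-04). F2rl1, the gene of a receptor cleaved by trypsin-like proteases, was lower (-0.17 ± 0.051, adjusted p = 0.0234), a call lost without KO replicate 1 (-0.16), without WT replicate 1 (-0.19) and without WT replicate 2 (-0.15).

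**Figure D4:**
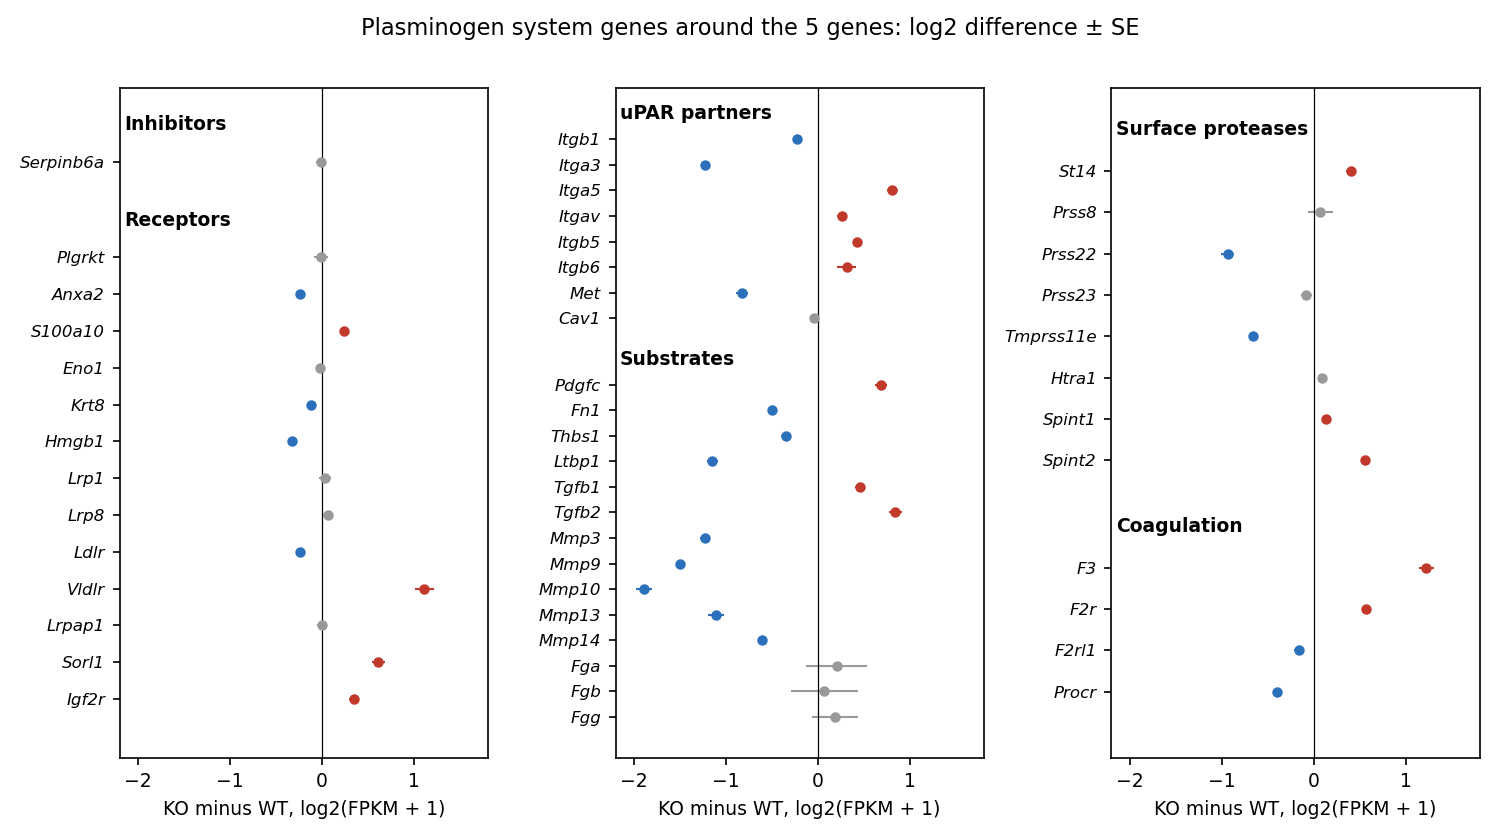
KO minus WT difference in log2(FPKM + 1) (horizontal) with its SE (bars, from limma, n = 2 each) for tested genes of 6 lists around the 5 genes. Red marks genes called higher, blue genes called lower and grey genes not called. Vldlr (1.11) and F3 (1.22) stand on the right, and Mmp10 (-1.89), Mmp9 (-1.50) and Itga3 (-1.23) on the left.

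Klk10 was the most abundant of the kallikrein genes measured. Of 13 other kallikreins listed, 7 were in the table and Klk8 alone was tested, having 0.434 and 0.759 FPKM in KO, against 1.85 and 2.12 FPKM in WT (-0.91 ± 0.131, adjusted p = 7.4e-04). Klk8 passed the filter only through WT, and its adjusted p with no filter was 0.016. Klk8 and Klk9 lie beside Klk10 in the RefSeq gene order of chromosome 7, and Klk9, below the filter, was at 0.0671 and 0.0503 FPKM in KO against 0.268 and 0.182 FPKM in WT. Klk7, the next gene, was at 0 and 0.0276 FPKM in KO and 0 and 0.105 FPKM in WT. The 3 genes on the other side, Klk11, Klk12 and Klk13, were not in the expression table.

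The same look at the 3 protein-coding genes on each side of the other members, chosen after values were seen, covers few genes. Over all tested genes, 64.7% were called, 35.6% higher and 29.1% lower in KO. All 6 neighbours of Plau on chromosome 14 were tested, 4 fell and none rose. Vcl, the vinculin gene next to it, had 29.8 and 30.2 FPKM in KO, against 46.3 and 46.1 FPKM in WT (adjusted p = 2.0e-05), a larger difference (-0.61) than that of Plau. Around Serpine2 on chromosome 1, 4 neighbours were tested and 2 rose, but Mrpl44, next to it, was not called (19.1 and 20.3 FPKM in KO, 19.5 and 18.8 in WT, adjusted p = 0.566). Around Plaur, 5 were tested with 1 higher and 2 lower, and around Plat on chromosome 8, 4 were tested with 1 higher and 2 lower.

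Transcription factors known to act at the Plau and Plaur promoters were called, in either direction, in a share near that of all genes. Of 16 listed and tested, 8 rose, 3 fell and 5 were not called (median 0.23). Of all tested genes, 64.7% were called, 35.6% higher and 29.1% lower in KO. The AP-1 genes Jun, Junb and Fos rose 2.69-fold, 1.98-fold and 5.27-fold (adjusted p = 1.0e-06, 2.2e-06 and 9.1e-06). Hif1a, the oxygen-regulated factor gene, fell to 32.3 and 33.0 FPKM in KO, against 56.2 and 54.7 FPKM in WT (adjusted p = 8.5e-06). Fosl1, the most abundant Fos family gene, was not called (99.1 and 101 FPKM in KO, 106 and 104 in WT, adjusted p = 0.102), and was named after its values were seen.

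Genes whose profile over the 4 libraries lay closest to each member were found by Euclidean distance between centred log2(FPKM + 1) values. Nearest to Klk10 were Dynap, a membrane protein gene (distance 0.214), Cmpk2, a mitochondrial nucleotide kinase gene (0.250), and Oas1g, an oligoadenylate synthetase gene (0.307). Cmpk2 and Oas1g had KO means of 0.22 and 0.19 FPKM and passed the filter only through WT. Their WT means were 19.7-fold and 21.9-fold the KO means, against 6.17-fold for Klk10, a gap that the log2(FPKM + 1) scale understates. Among the 3 nearest to Serpine2 were Selp, the P-selectin gene (0.067), and Serpinb9b (0.086). Plau, Plat and Plaur had closer neighbours, at 0.030 (Ndufaf4), 0.007 (Mrps35) and 0.009 (Esf1), as is usual where many genes share a small difference. With 4 libraries in 2 groups, such likeness rests on the size of the genotype difference and the order of the replicates.

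The authors' annotation gave terms that some of the 5 genes share. The genes had been grouped by known function, so shared terms follow from that choice and add no evidence. Extracellular region was given to 4 of them (Plau, Plaur, Plat and Serpine2), cell surface to 3 (Plau, Plaur and Plat) and plasminogen activation to 2 (Plau and Plat). Of 9 other genes with the term plasminogen activation, 5 were tested, none rose and 2 fell. Of 93 other genes annotated as serine-type endopeptidase inhibitors, 26 were tested, 16 rose and 5 fell (median log2 difference 0.25). Serpin genes other than Serpine2 were not left out of this list, so it may count again serpins described above. Of 127 other genes annotated as serine-type endopeptidases, 49 were tested, 14 rose and 14 fell (median -0.01). Over all tested genes 35.6% were called higher and 29.1% lower. These annotation lists were added after values were seen, and some of their genes passed the filter only through 1 genotype.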

How the data were processed

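The authors deposited 1 table of FPKM for 4 libraries, whose columns carry the sample names. The tools fastp and HTSeq and the build GRCm39 are named in the submitters' processing notes. No source used here gives the aligner, annotation or strand setting, so antisense and overlapping genes cannot be told apart. The genes and lists were chosen with earlier results of these data known. Genes with a mean of at least 1 FPKM (10170) were tested by limma-trend on log2(FPKM + 1), KO minus WT, two-sided, with Benjamini-Hochberg adjustment over all of them and calls at 0.05 (limma 3.58.1, R 4.3.3). SEs come from this fit, which adds 5.15 prior degrees of freedom. The test was checked on simulated data with independent noise and few changed genes. In these data 64.7% of tested genes were called, so that check does not cover their conditions. Folds are ratios of mean FPKM, and the log2(FPKM + 1) scale understates changes of low genes.

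Whole reads, within 0.01 of a read, and whole gene lengths were recovered for 16695 of 16695 genes (100% of genes) and tested with voom as an alternative. The smallest whole length that fitted was taken, so reads of genes with few reads may be a divisor of the true numbers, and 59 of 60 genes used to set the library totals gave whole lengths. Counting errors cover counting only. Replicates differed by more than counting allows (chi-square per gene, on average, 7.14 in KO and 4.03 in WT), so none was merged. Entrez identifiers of 16584 genes (99.3%) matched RefSeq GRCm38.p6, used for names, gene order and promoter windows only, as it is not the authors' build. Protein sequences planned for comparison were not used here.

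Named were the 5 genes, Dhodh, up to 4 called genes per list, taken by smallest adjusted p, 8 central genes and the genes nearest in profile; some of these are not reported here. Alternatives were a pseudocount of 0.1, no filter, TPM, median-ratio scaling, leaving out each library, a replicate block and voom. Tables were made with pandas 2.3.3 under Python 3.11.15 and drawn with Matplotlib 3.10.9.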

Additional observations from a re-analysis of the deposited data

How the results depend on the processing

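The direction of all 5 genes held under every alternative run, with log2 differences from -0.48 to -0.26 for Plau, -0.36 to -0.27 for Plat, -0.12 to -0.07 for Plaur, 1.81 to 2.0 for Serpine2 and -2.62 to -2.28 for Klk10. With no filter the Plau call was lost (-0.37), and under median-ratio scaling Plaur was called (-0.12). Leaving out 1 library gave log2 differences of -0.48 to -0.26 for Plau, -0.33 to -0.27 for Plat, -0.09 to -0.07 for Plaur, 1.82 to 1.88 for Serpine2, -2.47 to -2.28 for Klk10 and -0.26 to -0.12 for Dhodh, and 1 to 2 called genes on the list of Ly6 relatives. The Dhodh call was also lost with no filter (-0.19), TPM (-0.20) and voom (-0.21). With no filter, 4 genes of plasminogen and inhibitors, 2 kallikreins and 0 Ly6 relatives were called, and 2 Ly6 relatives under median-ratio scaling. Over all genes, 5655 to 6847 were called, with 6847 by voom. Plgrkt, not called, ranged from -0.099 to 0.074 when 1 library was left out and changed sign without DHODH KO replicate 1 (0.008) and WT replicate 2 (0.074). Lrp1, not called, ranged from -0.059 to 0.117 and changed sign without DHODH KO replicate 1 (-0.059) and under median-ratio scaling (-0.009). The causes were not tested. The replicate block, on numbers that share only a label (correlation of deviations 0.046 across 10170 genes), called 6682 genes in place of 6576 and left the calls of the 5 genes unchanged. With 2 libraries per genotype, the SEs rest largely on the spread pooled over genes.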
